A study of Homo sapiens with 24 samples.

Results

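ARNT and 9 genes that work with it in the response to low oxygen were described in 24 RNA libraries from human embryonic kidney cell lines. The 10 members are ARNT, ARNT2, HIF1A, EPAS1, AHR, HIF1AN, EGLN1, EGLN2, EGLN3 and VHL, out of 58138 gene names in each count table. ARNT was selected on these data, because its counts were lower in groups given RPRD2 siRNA, and the other 9 were added as its partners and the oxygen sensors of the pathway. The values that chose ARNT are therefore given as a description with no test.

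The series asked how RPRD1A, RPRD1B and RPRD2, proteins that bind RNA polymerase II, affect steady-state RNA. HEK293T cells, an established human line, were transfected with small interfering RNAs (siRNAs) for 48 hours in 8 groups. They were a control siRNA group (control), 3 groups whose labels name RPRD1A or RPRD1B and not RPRD2 (RPRD1B_KD, RPRD1A_KD and RPRD1A_RPRD1A_KD), and 4 whose labels name RPRD2 (RPRD2_KD by itself, and in combination RPRD1B_RPRD2_KD, RPRD1A_RPRD2_KD and RPRD1A_RPRD1B_RPRD2_KD). Flp-In T-REx 293 cells, which also descend from embryonic kidney 293 cells and carry a fixed site for a gene switched by tetracycline, gave 4 groups. FLP and RPRD1B_FL were left uninduced, and their counterparts FLP_TET and RPRD1B_FL_TET received tetracycline for 48 hours. Each of the 12 groups had 2 samples, and no group is labelled as grown in low oxygen. The labels do not explain FL, do not say whether a line is a single clone, and do not say whether the samples of a group were separate cultures, so p-values measure a spread that may be technical. In such bulk samples, fewer cells with a transcript and less transcript per cell cannot be told apart.

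ARNT encodes the shared partner of a family of paired transcription factors. It joins HIF1A or EPAS1 (HIF-2 alpha) to switch on hypoxia genes, and joins AHR, the receptor for dioxin-like compounds, to switch on detoxification genes; ARNT2 is its close relative. In normal oxygen the prolyl hydroxylases EGLN1, EGLN2 and EGLN3 mark the HIF alpha proteins for the VHL ubiquitin ligase, and HIF1AN blocks their contact with coactivators, so the pathway is set largely through protein, which was not measured here.

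The members lie on 8 chromosomes of GRCh38 by the GENCODE 29 annotation, matched by name (10 of 10). ARNT is at chr1:150809705-150876768 on the minus strand, and RPRD2, the gene targeted in the groups where ARNT was lower, is at chr1:150363091-150476566 on the plus strand, 333.1 kb away. EGLN1 is also on chromosome 1, at chr1:231363751-231425044. HIF1A is at chr14:61695513-61748259, EPAS1 at chr2:46293667-46386703, AHR at chr7:16916359-17346152, ARNT2 at chr15:80404350-80597937, HIF1AN at chr10:100529072-100559998, EGLN2 at chr19:40798996-40808433, EGLN3 at chr14:33924231-34462774 and VHL at chr3:10141008-10152220. HIF1AN overlaps NDUFB8 on the opposite strand over 929 bases, and EGLN3's longest model holds SPTSSA on the same strand, so their counts are uncertain to that extent. The EGLN2 model also overlaps the read-through gene RAB4B-EGLN2 on the same strand over 9423 bases. That gene had 0 counts in every library, which does not show whether reads shared by both genes were left out of EGLN2.

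The promoters of 3 genes are shown: ARNT, another member (EGLN1) and DDIT4, a listed HIF target. DDIT4 was called in RPRD1B_FL_TET against FLP_TET, though not under every alternative. HIF dimers bind a core of ACGTG or GCGTG, and capitals mark each match, read on both strands, in the 250 bases before the RefSeq start (GRCh38.p14).
ARNT (chr1:150876600-150876849, minus strand): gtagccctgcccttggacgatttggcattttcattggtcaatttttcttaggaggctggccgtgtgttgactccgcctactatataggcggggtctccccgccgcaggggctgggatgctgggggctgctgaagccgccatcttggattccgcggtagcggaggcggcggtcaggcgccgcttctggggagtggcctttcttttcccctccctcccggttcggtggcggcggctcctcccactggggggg
EGLN1 (chr1:231422288-231422537, minus strand): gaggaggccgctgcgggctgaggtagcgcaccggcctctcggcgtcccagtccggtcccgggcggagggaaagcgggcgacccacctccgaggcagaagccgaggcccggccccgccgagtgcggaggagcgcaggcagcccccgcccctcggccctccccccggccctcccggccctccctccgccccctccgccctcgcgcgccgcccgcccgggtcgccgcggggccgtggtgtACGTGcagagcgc
DDIT4 (chr10:72273674-72273923, plus strand): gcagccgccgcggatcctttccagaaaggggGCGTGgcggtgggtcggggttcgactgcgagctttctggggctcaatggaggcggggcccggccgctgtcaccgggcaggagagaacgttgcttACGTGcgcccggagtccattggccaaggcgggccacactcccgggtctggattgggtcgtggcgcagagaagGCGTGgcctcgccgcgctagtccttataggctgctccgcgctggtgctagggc
ARNT's window held no match, EGLN1's held 1 and that of DDIT4, a stress-induced inhibitor of mTORC1 signalling, held 3. Among windows not printed, those of AHR and EGLN2 held 2 each, those of HIF1A and EPAS1 held 1 each, and those of HIF1AN and EGLN3 held none. EGLN3 is itself on the HIF target list. The window of PFKL, a listed HIF target also called in the Flp-In cells, held 1. Of the 8 members in the RefSeq table (ARNT2 and VHL were not matched), 5 held the core, against 11763 of 27305 promoters in all (43.1%) and 38 of 52 listed HIF target genes (73.1%). A match is a description of letters and does not show binding. RefSeq and GENCODE place some starts differently. The window of EGLN1 and part of ARNT's lie inside the GENCODE spans given above, as does AHR's window (chr7:17298402-17298651). Such bases are before the RefSeq start but not before the longest GENCODE model.

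Libraries held 1817246 to 3135625 counts in HEK293T and 2342969 to 3531106 in Flp-In cells, where 3 counts, taken as the detection floor, equal 0.957 to 1.65 and 0.85 to 1.28 CPM (counts scaled to library size, elsewhere by TMM over all libraries); floors cover counting error only. Listed markers of 293 cells varied in level. The lowest values were 76.2 CPM for VIM, 54.5 for HOXA9, 14.5 for KRT18, 6.62 for INA, 5.34 for EYA1 and 4.92 for LHX1. NEFL and KRT8 were at 1.01 to 6.55 and 1.54 to 6.44 CPM in HEK293T, and at 83.7 and 39.8 CPM or more in Flp-In cells. NEFM was at 4.57 CPM or more in HEK293T and at 0.762 to 3.79 CPM in Flp-In cells, and PAX2 at 0.537 to 10.1 CPM in all. Among markers of other cells, PTPRC, ALB, HBB, PECAM1, CDH5 and COL1A2 had at most 2 counts. COL1A1 reached 14.2 CPM, and EPCAM 4.73 CPM in HEK293T and 113 CPM in Flp-In cells. The second RPRD1A_RPRD2_KD library stood apart, with a median correlation of 0.923 with the other HEK293T libraries against 0.965 to 0.977 for the rest, and the first FLP library had 0.952 against 0.965 to 0.976. The group labelled RPRD1A_RPRD1A_KD also had low RPRD1B, at 13.7 and 7.96 CPM against 26.9 and 27.6 CPM in the control.

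RPRD2 was lower in all libraries whose label names its siRNA. It was at 93.0 and 99.7 CPM in the control, 33.4 and 30.3 CPM in RPRD2_KD, 44.6 and 49.8 CPM in RPRD1A_RPRD2_KD, 45.3 and 39.0 CPM in RPRD1B_RPRD2_KD, and 68.1 and 51.3 CPM in RPRD1A_RPRD1B_RPRD2_KD. The triple group thus kept the most RPRD2 of the 4, and RPRD2_KD the least. RPRD1A was also low in some libraries given no siRNA against it. It was at 147 and 162 CPM in the control and at 72.2 and 97.2 CPM in RPRD2_KD. RPRD1A was at 83.7 and 100 CPM in RPRD1B_KD, and at 67.6 and 83.4 CPM in RPRD1B_RPRD2_KD. It was not called in any of these groups against the control. RPRD2 was therefore not the only siRNA target with lower values in RPRD2_KD, and the cause was not tested.

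ARNT was lowest in RPRD1A_RPRD2_KD, at 93.3 and 52.5 CPM, and next in RPRD2_KD, at 99.3 and 96.8 CPM. It was at 112 and 112 CPM in RPRD1B_RPRD2_KD and at 118 and 120 CPM in RPRD1A_RPRD1B_RPRD2_KD. The control libraries had 124 and 117 CPM, so the triple group overlapped the control and the other 3 groups lay below it. With siRNA to RPRD1A or RPRD1B only, ARNT was at 153 and 145 CPM (RPRD1A_KD), 157 and 126 CPM (RPRD1B_KD), and 157 and 138 CPM (RPRD1A_RPRD1A_KD), all above both controls.

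The order of mean ARNT among HEK293T groups, from low to high, was RPRD1A_RPRD2_KD (72.9 CPM), RPRD2_KD (98.1 CPM), RPRD1B_RPRD2_KD (112 CPM), RPRD1A_RPRD1B_RPRD2_KD (119 CPM), control (121 CPM), RPRD1B_KD (141 CPM), RPRD1A_RPRD1A_KD (147 CPM) and RPRD1A_KD (149 CPM). The triple group and the control overlapped, as did the 3 highest groups among themselves; the other neighbours in the order did not overlap in their 2 libraries each, although the SD of 28.9 CPM in RPRD1A_RPRD2_KD is larger than its distance from RPRD2_KD. The description that ARNT was lower with RPRD2 siRNA therefore held against the RPRD1A and RPRD1B groups, whose 6 libraries (126 to 157 CPM) were all above the 8 RPRD2 siRNA libraries (52.5 to 120 CPM), but not for the triple group against the control.

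Averaged over the 4 groups on each side, ARNT was at 100.6 ± 21.9 CPM (SD, n = 8) with RPRD2 siRNA and 139 ± 15.7 CPM (SD, n = 8) without, a log2 fold change of -0.50 (SE 0.11). Without the second RPRD1A_RPRD2_KD library the 7 remaining RPRD2 siRNA libraries lay at 93.3 to 120 CPM and the log2 fold change was -0.39. Against the control alone, ARNT's log2 fold change was -0.77 (SE 0.23) in RPRD1A_RPRD2_KD, -0.31 (SE 0.22) in RPRD2_KD, -0.12 (SE 0.22) in RPRD1B_RPRD2_KD and -0.03 (SE 0.22) in the triple group. It was 0.28, 0.27 and 0.21 in RPRD1A_KD, RPRD1A_RPRD1A_KD and RPRD1B_KD, each with an SE of 0.22. These 7 comparisons share the control libraries. The value for RPRD1A_RPRD2_KD ranged from -1.27 to -0.35 when either of its libraries was left out, so its size depends on the library that stood apart.

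Libraries numbered 1 and 2 in the labels differed in HEK293T cells in the share of reads outside annotated genes, at 34.3% to 36.7% and 27.4% to 29.8%, without overlap. The members were therefore also compared within each number, an alternative chosen after seeing the data. Among libraries numbered 1, ARNT was at 93.3 to 118 CPM with RPRD2 siRNA and 124 to 157 CPM without, a difference of -0.48 in mean log2(CPM + 1). Among those numbered 2 it was at 52.5 to 120 CPM and 117 to 145 CPM, a difference of -0.52, and the triple group overlapped the control. ARNT's fitted value with the number as a block was -0.50, as without it.

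**Figure D1:**
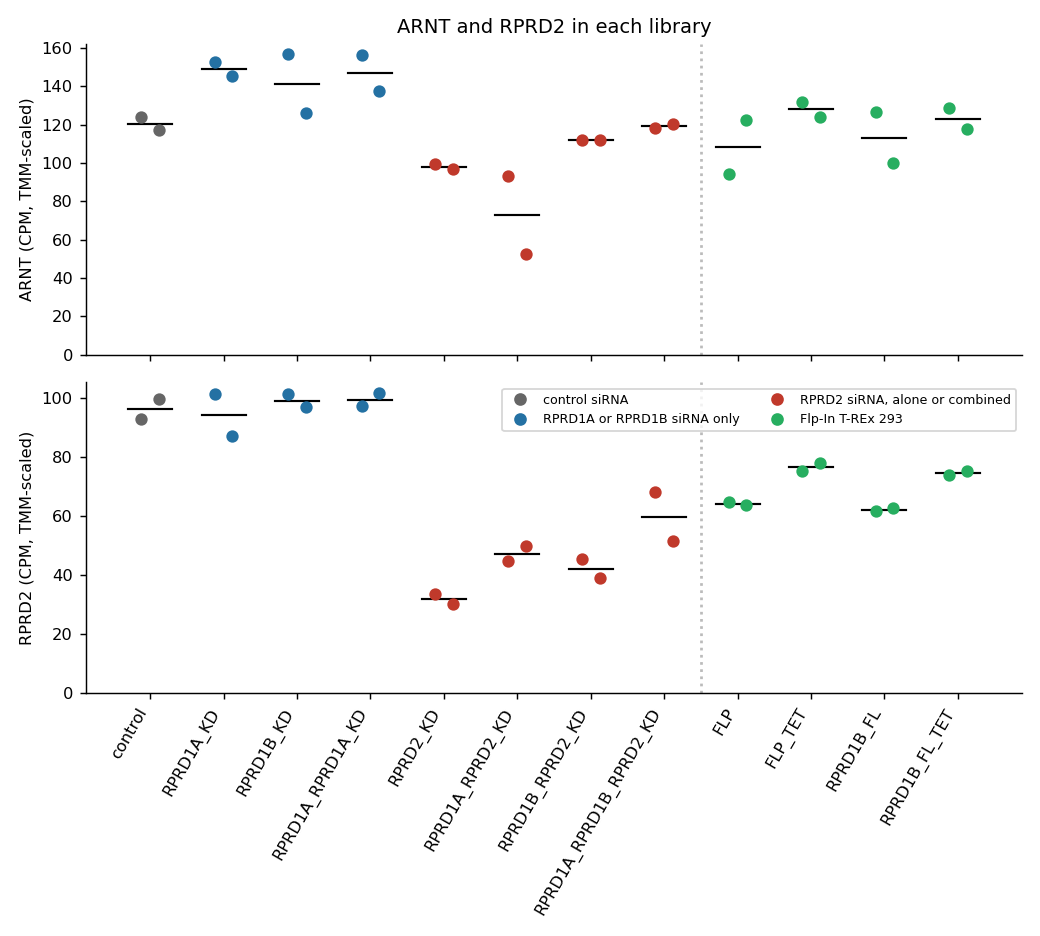
ARNT (top) and RPRD2 (bottom) in CPM scaled by TMM, with a point per library, a bar at each group's mean and groups on the horizontal axis; colours give the siRNA class and the dotted line separates HEK293T from Flp-In groups. The red ARNT points (52.5 to 120 CPM) lie below the blue ones (126 to 157 CPM), and the 2 red points of the triple group are level with the grey control points.

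Separation of the 8 RPRD2 siRNA libraries from the 6 with RPRD1A or RPRD1B siRNA only was rare: 10 of 8740 genes with a mean of 10 CPM or more did so, which is 0.114%. ARNT was chosen for this difference, so nothing is read from its place among them. The lower genes were ARNT, RPRD2, MAPK6, MICALL1, PODXL and TOR3A, and the higher ones BYSL, C1orf131, TECPR1 and TRIM41. None of the other members separated: HIF1A, HIF1AN, EGLN1, EGLN2 and VHL overlapped, and ARNT2, EPAS1, AHR and EGLN3 were under the minimum level.

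The 5 genes whose log2(CPM + 1) followed ARNT most closely over the 16 HEK293T libraries, among 6761 genes with a mean of 20 CPM or more, were CDC42SE1 (Pearson r 0.935), TM9SF4 (0.924), ZDHHC5 (0.912), CAPZB (0.908) and ADSS (0.907). RPRD2 itself ranked 566 with an r of 0.631. All of these correlations share the library that stood apart, where TM9SF4 was at 10.5 CPM and CDC42SE1 at 62.7 CPM, each the lowest of its 16 values. Over the other 15 libraries, CDC42SE1 stayed at rank 1 (r 0.834), RPRD2 came to rank 2 (0.831) and TM9SF4 to rank 3 (0.813), while ZDHHC5, CAPZB and ADSS fell to ranks 14, 15 and 20. These r values describe the libraries and carry no p. ARNT was chosen for being lower in the libraries given RPRD2 siRNA, where RPRD2 was also lower, so nothing is read from RPRD2's r or rank.

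CDC42SE1, a small binding partner of the GTPase CDC42, lies 174.2 kb from ARNT on the far side from RPRD2, so the genes along this stretch of chromosome 1 were examined. Between PRPF3 and GABPB2, 14 listed genes besides ARNT had enough counts for the contrast of the 4 RPRD2 siRNA groups with the other 4. CDC42SE1 is among the 14 but is described without a test. RPRD2, the siRNA target, was the 1 called (adjusted p under 0.05 by edgeR), lower by a log2 fold change of -1.14 (SE 0.09). Over all genes tested, 2 of 11834 were called (0.0169%). The list's median log2 fold change was -0.07, against -0.01 over all genes, with 11 lower and 3 higher. The lower ones include RPRD2, the siRNA target, and CDC42SE1, named for its likeness to ARNT.

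CDC42SE1 was at 62.7, 136 and 154 CPM (lowest, median, highest) with RPRD2 siRNA and at 151, 169 and 183 CPM without, and only the highest RPRD2 siRNA library reached into the other range. It was named for its likeness to ARNT in these same libraries, and ARNT for this contrast, so its log2 fold change of -0.39 (SE 0.12) is a description with no test. The value was -0.27 without the second RPRD1A_RPRD2_KD library. GABPB2, a subunit of the GABP transcription factor 193.8 kb from ARNT, had -0.45 (SE 0.15; edgeR adjusted p = 1.00, unadjusted p = 0.0075), and HORMAD1, a meiotic chromosome protein 88.8 kb from ARNT toward RPRD2, had -0.65 (SE 0.28; edgeR adjusted p = 1.00, unadjusted p = 0.034) at a mean of 4.37 against 6.74 CPM. With the first RPRD1A_RPRD2_KD library left out, so that the library that stood apart was alone in its group, GABPB2 had -0.59. GABPB2 begins at chr1:151070578, beside the end of CDC42SE1 at chr1:151070325. The stretch was examined because CDC42SE1 resembled ARNT in these libraries, so nothing is read from GABPB2's p.

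Other genes on either side of ARNT had values nearer 0. SETDB1, a histone H3 lysine 9 methyltransferase 49.5 kb away, had a log2 fold change of 0.00 (SE 0.11), and CERS2, a ceramide synthase, -0.25 (SE 0.21). On the RPRD2 side, GOLPH3L had 0.12 (SE 0.11), ENSA 0.00 (SE 0.10) and MCL1, an anti-apoptotic BCL2 relative, -0.14 (SE 0.11). The values were -0.10 (SE 0.16) for TARS2 and -0.04 (SE 0.14) for PRPF3, which flank RPRD2, and on the far side 0.08 (SE 0.31) for MINDY1, -0.01 (SE 0.09) for PRUNE1 and -0.05 (SE 0.19) for MLLT11. MLLT11 lies within the span of CDC42SE1 on the opposite strand, and whether counting used strand is not given in the sources used here. ECM1, ADAMTSL4, CTSS, CTSK, ANXA9 and BNIPL were too low to test.

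**Figure D2:**
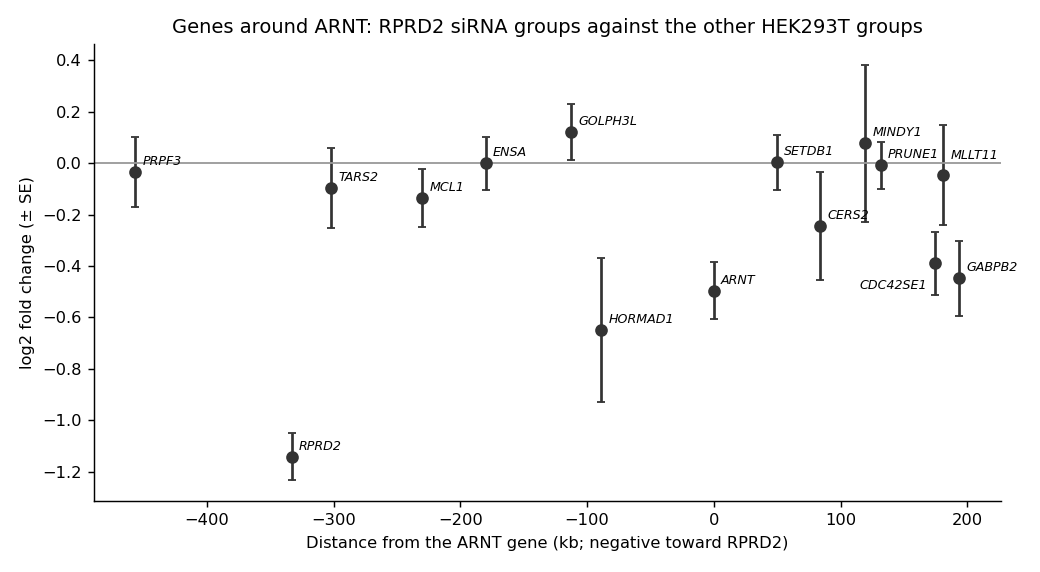
Log2 fold change (± SE, vertical axis) of ARNT and the genes around it with enough counts, in the RPRD2 siRNA groups against the other HEK293T groups, by distance from ARNT in kb (horizontal axis). ARNT and CDC42SE1 are shown without a test. RPRD2 is lowest at -1.14, ARNT is at -0.50, and SETDB1, PRUNE1 and ENSA lie at 0.00 or -0.01.

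The partners of ARNT were examined next. HIF1A, the oxygen-labile partner, was at 50.0 and 78.8 CPM in the control and at 50.9 and 58.3 CPM in RPRD2_KD. Over the 8 RPRD2 siRNA libraries its mean was 64.9 CPM, against 67.9 CPM in the others, a log2 fold change of -0.07 (SE 0.11; edgeR adjusted p = 1.00). The controls alone spanned more than that difference. EPAS1, the alternative HIF alpha subunit, was at 4.61 to 14.5 CPM in HEK293T libraries and had a log2 fold change of -0.02 (SE 0.21).

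ARNT2, which can take ARNT's place in dimers, was at 3.22 and 9.79 CPM in the control, 6.68 and 5.51 CPM in RPRD2_KD and 1.56 and 5.08 CPM in RPRD1A_RPRD2_KD. Its pooled log2 fold change was -0.33 (SE 0.25; edgeR adjusted p = 1.00), with 3 to 24 counts behind each library's value. AHR had 1 to 9 counts per HEK293T library, was at or under the floor in 8 of 16, and was not tested there.

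None of the oxygen sensors was called in the pooled contrast. EGLN1, the main prolyl hydroxylase of normal oxygen, was at 20.4 and 24.03 CPM in the control and 29.6 and 22.4 CPM in RPRD2_KD, and its pooled log2 fold change was 0.02 (SE 0.12). EGLN2, the isoform least dependent on hypoxia for its own expression, was at 57.0 and 41.4 CPM in the control and 45.1 and 31.1 CPM in RPRD2_KD, with a pooled value of -0.02 (SE 0.13). EGLN3, a hypoxia-induced isoform, was at 3.07 to 9.85 CPM, with a pooled value of 0.10 (SE 0.21). HIF1AN, the asparaginyl hydroxylase, was at 127 and 85.4 CPM in the control and 132 and 98.8 CPM in RPRD2_KD, with a pooled value of -0.06 (SE 0.11). For each of these 4 genes the RPRD2 siRNA libraries overlapped the other libraries, and the edgeR adjusted p was 1.00.

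VHL, the substrate receptor that recognises hydroxylated HIF alpha, had values opposite in direction to ARNT's and did not pass the test. It was at 46.2 and 34.3 CPM in the control, 51.3 and 44.1 CPM in RPRD2_KD, 52.9 and 68.8 CPM in RPRD1A_RPRD2_KD, 54.3 and 46.3 CPM in RPRD1B_RPRD2_KD, and 52.7 and 53.4 CPM in the triple group. The groups with RPRD1A or RPRD1B siRNA only had 39.4 to 55.1 CPM, so the ranges overlapped, and the highest VHL value came from the second RPRD1A_RPRD2_KD library, which also had the lowest ARNT. The pooled log2 fold change was 0.25 (SE 0.10; edgeR adjusted p = 1.00, unadjusted p = 0.028) and ranged from 0.19 to 0.32 over the alternative fits, with adjusted p from 0.32 to 1.00. Against the control it was largest in RPRD1A_RPRD2_KD, at 0.57 (SE 0.21; edgeR adjusted p = 0.65).

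**Figure D3:**
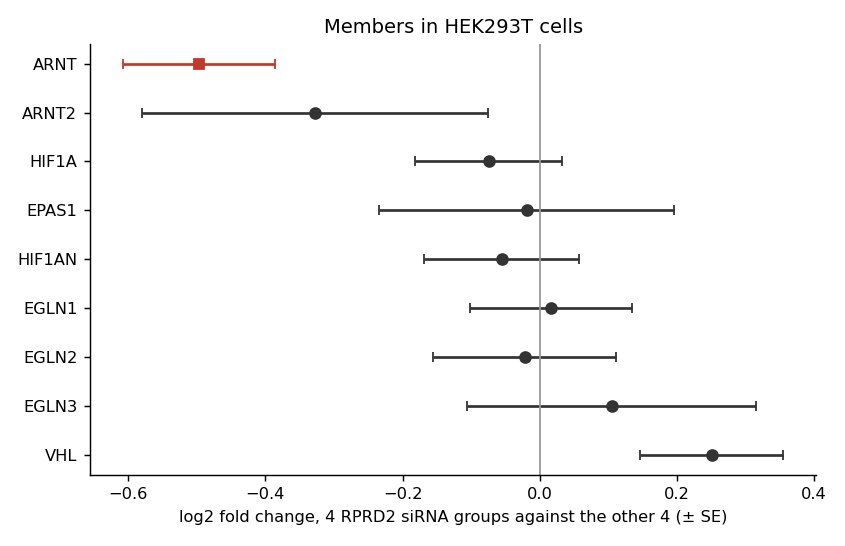
Log2 fold change (± SE, horizontal axis) of each tested member in the 4 RPRD2 siRNA groups against the other 4 HEK293T groups; the red square is ARNT, which was chosen for this difference, and AHR was too low to test. ARNT is at -0.50 and VHL at 0.25, and the others lie between -0.33 and 0.10.

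None of the 8 members tested besides ARNT was called in any of the 8 HEK293T comparisons, by edgeR or by DESeq2. At an unadjusted p under 0.05 the count was 1 (VHL) in the pooled contrast, where 3.35% of all genes were, and 1 (VHL) in RPRD1A_RPRD2_KD against the control, where 7.07% were, and 0 in the other 6. Few genes were called at all: 0.0169% in the pooled contrast and in RPRD1A_RPRD1A_KD, RPRD1B_RPRD2_KD and the triple group against the control, and 0.00845% in RPRD1A_KD, RPRD1B_KD, RPRD2_KD and RPRD1A_RPRD2_KD against the control. A count of 0 among 8 genes is therefore near the background.

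In the Flp-In cells, which took no part in the choice of ARNT, ARNT was tested. It was at 94.3 and 122 CPM in FLP, 132 and 124 CPM in FLP_TET, 127 and 99.7 CPM in RPRD1B_FL, and 128 and 118 CPM in RPRD1B_FL_TET. The log2 fold change was 0.07 (SE 0.17; edgeR adjusted p = 0.90) for RPRD1B_FL against FLP, -0.08 (SE 0.17; edgeR adjusted p = 0.94) for RPRD1B_FL_TET against FLP_TET, 0.24 (SE 0.17; edgeR adjusted p = 0.40) for FLP_TET against FLP, and 0.10 (SE 0.17; edgeR adjusted p = 0.93) for RPRD1B_FL_TET against RPRD1B_FL. RPRD1B was at 89.2 and 67.5 CPM in RPRD1B_FL_TET against 30.6 and 30.3 CPM in FLP_TET, while ARNT's libraries overlapped between these groups. RPRD2 siRNA was not used in this line, and RPRD2 was at 61.6 to 78.0 CPM in its 8 libraries.

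No member was called in the 4 Flp-In comparisons by edgeR or by DESeq2, among 10 tested. The share of all 11948 genes called was 1.18% for RPRD1B_FL against FLP, 1.11% for RPRD1B_FL_TET against FLP_TET, 1.02% for FLP_TET against FLP and 0% for RPRD1B_FL_TET against RPRD1B_FL. At an unadjusted p under 0.05 there was 1 member (HIF1A) in the contrast of tetracycline-treated lines and 1 (EGLN3) in the tetracycline contrast of the FLP line, and 0 in the other 2; of all genes 10.3% and 22.7% were under that threshold in these contrasts, so 1 of 10 members is at or below the background. For HIF1A the RPRD1B_FL_TET libraries had 35.8 and 43.4 CPM, and those of FLP_TET had 52.4 and 54.3 CPM. Its fitted value was -0.46 on the log2 scale, with an SE of 0.22 and an edgeR adjusted p of 0.47. EGLN3 was at 6.13 and 10.5 CPM in FLP_TET against 2.65 and 4.94 CPM in FLP, a log2 fold change of 1.08 (SE 0.41; edgeR adjusted p = 0.13), and its value was 0.75 without the first FLP library, which stood apart.

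The lines differed in some members. EGLN2 was at 75.8, 91.6 and 115 CPM (lowest, median, highest) in the 8 Flp-In libraries and at 31.1, 44.7 and 61.3 CPM in the 16 HEK293T libraries, with no overlap. Of 8891 genes with a mean of 10 CPM or more, 21.9% did not overlap between the lines in either direction, and of the 6 members above that level (ARNT, HIF1A, HIF1AN, EGLN1, EGLN2 and VHL) it was EGLN2 alone. ARNT2, under that level on average, was at 11.7 to 17.9 CPM in Flp-In cells against 1.56 to 9.79 CPM in HEK293T cells, and EPAS1 was at 1.45 to 4.92 against 4.61 to 14.5 CPM. AHR was above the floor in all 8 Flp-In libraries, at 2.29 to 5.83 CPM. The cell line, the siRNA transfection and the library preparation cannot be told apart here; the share of reads outside annotated genes was 27.4% to 36.7% in HEK293T and 15.3% to 19.5% in Flp-In libraries.

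**Figure D4:**
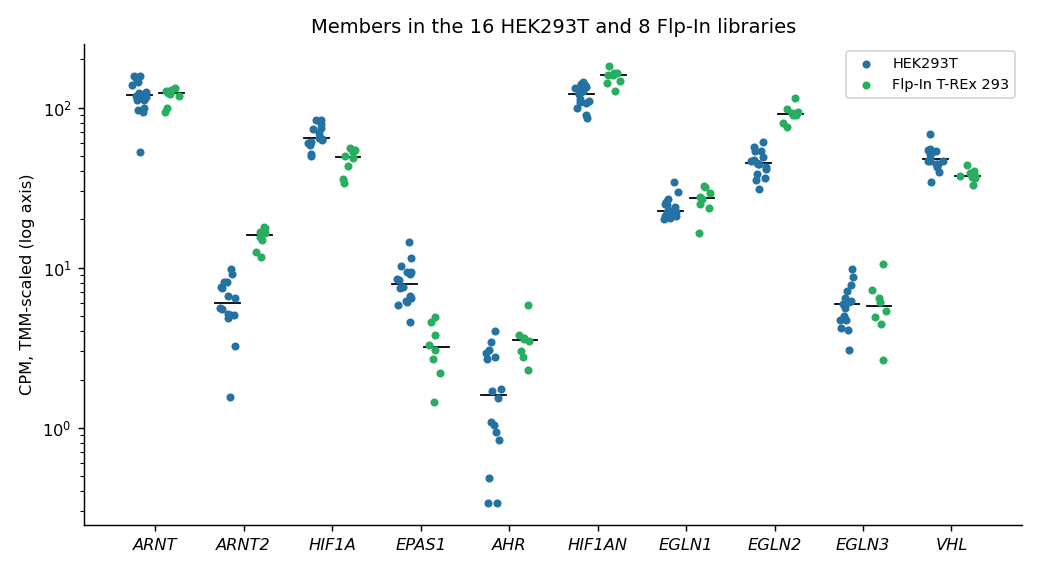
CPM of each member on a log axis, with a point per library (16 HEK293T in blue, 8 Flp-In in green) and a bar at the median; lines are to be compared within a gene. EGLN2 and ARNT2 do not overlap between the lines, and ARNT covers 52.5 to 157 CPM in HEK293T and 94.3 to 132 CPM in Flp-In cells.

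The wider pathway was read from lists chosen with earlier results known. Of 59 HIF target genes, EGLN3 among them, 51 were tested in HEK293T cells and none was called in the pooled contrast by edgeR or DESeq2 (0.0169% of all genes were), with 1 at an unadjusted p under 0.05 (3.35% of all genes were). Of these, 25 were higher and 26 lower, and the median log2 fold change was 0.00 against -0.01 over all genes. The gene past the unadjusted threshold was SLC2A3, a glucose transporter, at a log2 fold change of -0.47 (SE 0.21; edgeR adjusted p = 1.00). In RPRD2_KD against the control none was called by edgeR or DESeq2, and 4 of 51 had an unadjusted p under 0.05, as did 3.84% of all genes: the glycolytic enzymes GAPDH (-0.52, SE 0.17), PFKP (-0.53, SE 0.21) and ALDOC (-1.41, SE 0.63), and INSIG2, a sterol sensor (0.84, SE 0.39). CA9 and ANGPTL4, sensitive hypoxia markers in many cells, had at most 3 counts in any library.

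The lists of VHL and HIF cofactors, PAS-domain factors and AHR targets likewise had no call in the pooled contrast by edgeR or DESeq2, and none of their genes had an unadjusted p under 0.05. Of 22 genes of the VHL ligase and HIF cofactors, all tested, 8 were higher and 14 lower with a median of -0.04. Of 12 tested among 17 other PAS-domain and clock factors, the family ARNT belongs to, 6 were higher and 6 lower with a median of 0.03. Of 5 tested among 9 AHR target genes, 1 was higher and 4 were lower with a median of -0.08; CYP1A1, the classic AHR target, had 0 to 6 counts per HEK293T library.

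In the Flp-In lines 49 of the HIF target genes were tested. In RPRD1B_FL against FLP, 1 of 49 was called, as were 1.18% of all genes. SLC2A3 fell, from 15.9 and 20.05 CPM to 6.56 and 6.88 CPM, a log2 fold change of -1.42 (SE 0.34; edgeR adjusted p = 0.042). Its direction held with any of the FLP, FLP_TET or RPRD1B_FL libraries left out (-1.56 to -1.24), but then it was not called, nor was it by DESeq2 (adjusted p = 0.12). In RPRD1B_FL_TET against FLP_TET, 3 of 49 were called lower and none higher. Of all genes 1.11% were called there, 106 lower and 27 higher. The list median was -0.10 against 0.00 over all genes. SLC2A3 went from 21.4 and 20.4 CPM to 8.77 and 2.23 CPM (-1.89, SE 0.35; edgeR adjusted p = 0.0062), and its value was -1.29 without the lower of the RPRD1B_FL_TET libraries, the second, and -3.21 without the first. It was not called with either FLP_TET library left out (adjusted p = 0.12 and 0.085). PFKL, the liver-type phosphofructokinase, went from 225 and 238 CPM to 109 and 84.0 CPM (-1.28, SE 0.18; edgeR adjusted p = 0.00033). DDIT4, whose promoter is printed above, went from 297 and 293 CPM to 203 and 160 CPM (-0.72, SE 0.18; edgeR adjusted p = 0.043), and it was not called without the second RPRD1B_FL_TET library (-0.57, edgeR adjusted p = 0.15) or with either FLP_TET library left out (adjusted p = 0.41 and 0.34), nor by DESeq2 (adjusted p = 0.056) or with RLE size factors (adjusted p = 0.053). For these 3 genes the libraries of the 2 groups did not overlap. The genes were called from these same libraries, so this adds nothing to the calls, and the share of all genes without overlap is not given here.

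PFKL is on chromosome 21, as is SIM2, a PAS-domain factor that pairs with ARNT. SIM2 fell in RPRD1B_FL against FLP, from 45.5 and 40.7 CPM to 21.5 and 21.8 CPM (-0.98, SE 0.21; edgeR adjusted p = 0.020), and in RPRD1B_FL_TET against FLP_TET (-0.92, SE 0.22; edgeR adjusted p = 0.035). The former call was lost without the first FLP library (-0.89, adjusted p = 0.18) or either RPRD1B_FL library, and the latter without either FLP_TET library (adjusted p = 0.13 and 0.46) or the first RPRD1B_FL_TET library, and by DESeq2 (adjusted p = 0.11). Chromosome 21 genes were lower as a group in the RPRD1B_FL line: of 105 tested, 40 and 33 were called lower in these comparisons, with medians of -0.73 and -0.70. The part of this in the values of PFKL and SIM2 was not tested.

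With tetracycline in the FLP line, PFKL was the HIF target called. In FLP_TET against FLP, 1 of 49 was called, as were 1.02% of all genes. PFKL rose from 113 and 148 CPM to 225 and 238 CPM (0.83, SE 0.18; edgeR adjusted p = 0.046). A further 14 had an unadjusted p under 0.05, as did 22.7% of all genes. Of the 14, 11 had positive values, ALDOA (0.68, SE 0.17; edgeR adjusted p = 0.052), PFKP (0.65, SE 0.17; edgeR adjusted p = 0.056), ENO1 (0.60, SE 0.17; edgeR adjusted p = 0.067) among them, and ADM (-0.58), RORA (-0.67) and WSB1 (-0.40) had negative ones; the list median was 0.15 against -0.01. Among the cofactors, HSP90AA1, a chaperone of HIF1A and AHR, fell from 3849 and 2285 CPM to 1632 and 1559 CPM (-0.94, SE 0.20; edgeR adjusted p = 0.046). Without the first FLP library, which stood apart, PFKL's log2 fold change was 0.66 and HSP90AA1's -0.50, each with an edgeR adjusted p of 0.63. Both calls were also lost with either FLP_TET library left out (adjusted p = 0.34), and that of HSP90AA1 by DESeq2 (adjusted p = 0.072). In RPRD1B_FL_TET against RPRD1B_FL no HIF target was called by edgeR or DESeq2, with 3 of 49 at an unadjusted p under 0.05 (6.13% of all genes were), and whether the tetracycline effect differed between the lines was not tested.

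**Figure D5:**
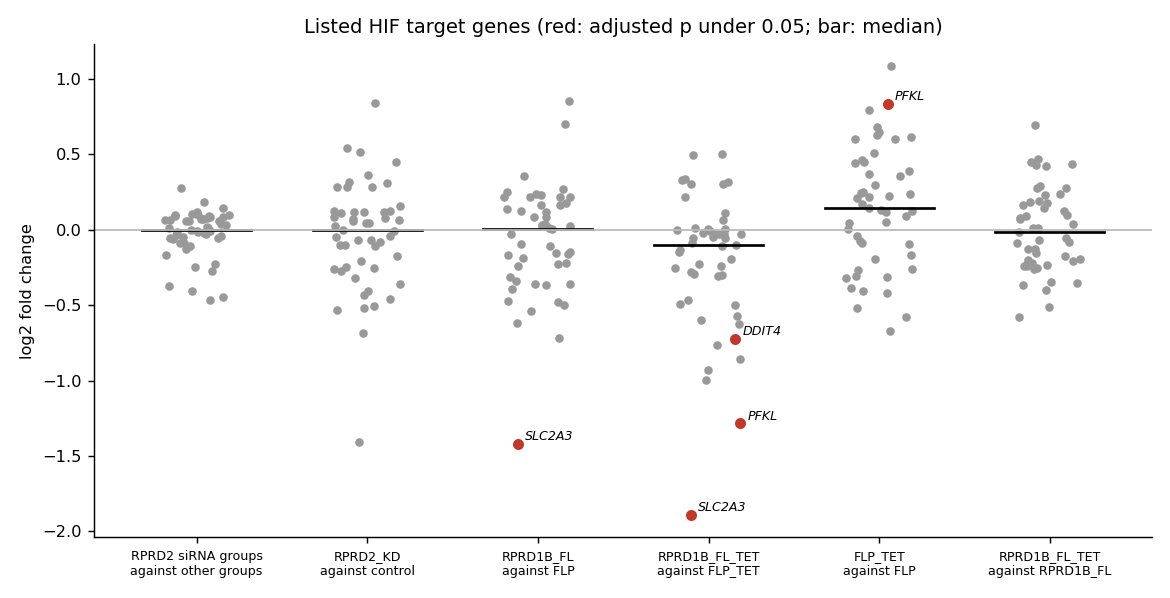
Log2 fold change (vertical axis) of each tested HIF target gene in 6 comparisons (horizontal axis), with the median as a bar and called genes in red. Medians are 0.00 in both RPRD2 comparisons, -0.10 in RPRD1B_FL_TET against FLP_TET and 0.15 in FLP_TET against FLP; SLC2A3 is lowest at -1.89.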

How the data were processed

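Each of the 24 samples has a table of whole-number counts per gene name, deposited by the authors, from QuantSeq 3′ REV libraries of polyadenylated RNA, which read transcripts at their 3′ ends. The submitters' processing notes name FastQC, STAR, HTSeq, DESeq2 and GRCh38, with no versions; the annotation and strand setting are not given in the sources used here. The 5 closing rows of each table, which name no gene, were left out: reads outside genes made up 15.3% to 36.7% of reads.

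The members and lists were chosen with earlier results of these data known. Counts were fitted with edgeR 4.0.16 (R 4.3.3, limma 3.58.1), with all samples of a cell line in a single fit with group means as coefficients. The filter was filterByExpr (minimum count 10, minimum total 15) and the scaling TMM; tests were quasi-likelihood F tests with Benjamini-Hochberg adjustment over all genes; a gene was called at an adjusted p under 0.05. SE was taken as the size of the log2 fold change divided by the root of its F statistic. The fit was tested on simulated data. Named genes are the members, the RPRD genes, the listed chromosome 1 genes, up to 4 called genes of each list, and the 5 genes most like ARNT; other genes were named after their values were seen. Alternatives were DESeq2 1.42.0, RLE size factors, no filter, only the groups compared, the replicate number as a block (also without the second RPRD1A_RPRD2_KD library), each sample left out, CPM of library totals without TMM and, added after seeing the data, differences within each replicate number. Names were matched to GENCODE 29 (54848 of 58138 matched a single gene) and promoters came from RefSeq. No samples of a group agreed within sampling noise (chi-square per degree of freedom 2.01 to 10.7).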

Additional observations from a re-analysis of the deposited data

How the results depend on the processing

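No member tested was called under any of the alternatives run (ARNT was given no test in HEK293T cells), and ARNT's pooled log2 fold change ranged over the fits from -0.62 to -0.39. Of 2093 alternative values for 112 pairs of a member and a comparison, 108 differed in sign from the reported value without a call in either, and none turned a call. A further 3 were labelled as moved by more than the spread between replicates, all of ARNT in RPRD1A_RPRD2_KD against the control (-1.27, -0.42 and -0.35, with a library of that group left out). Within each replicate number this label was judged for ARNT only. Other members also shifted without a call: ARNT2 in RPRD1A_RPRD2_KD against the control ranged from -2.05 to 0.07 around -0.93. The count of HIF target genes called moved, as did the count over all genes, which in FLP_TET against FLP was 0 to 1307 over the alternatives. By DESeq2 it was 0 in RPRD1B_FL against FLP and 4 in FLP_TET against FLP, which had 6 without the filter and 8 with only the compared groups fitted. With the replicate block it was 0 in both, and SLC2A3 (adjusted p = 0.051), PFKL and HSP90AA1 (0.056 each in FLP_TET against FLP) and DDIT4 (0.058) were not called. Leaving out 1 library gave 0 to 2 in RPRD1B_FL against FLP, 0 to 8 in FLP_TET against FLP, 1 to 3 in RPRD1B_FL_TET against FLP_TET and 0 to 1 in the pooled contrast, where PGAM1 was called without the first RPRD1A_RPRD2_KD library. With the replicate block and without the second RPRD1A_RPRD2_KD library, 2 (GAPDH and ALDOA) were called in RPRD2_KD against the control, where 167 of 12255 genes were; GAPDH was also called lower in RPRD1A_KD and RPRD1B_KD, and PGAM1 in RPRD1A_RPRD1A_KD, RPRD1B_RPRD2_KD and the triple group. The shares of all genes called are not given here for those further calls of GAPDH and PGAM1. In RPRD1A_RPRD2_KD against the control, none of 51 HIF targets was called in the main fit, where 0.00845% of all genes were. With no filter, PGAM1 was called lower there (-1.54, edgeR adjusted p = 3.5e-07). Its value was -3.38 without the first library of that group, which left the library that stood apart. The causes were not tested. The labels give the replicate numbers no meaning: deviations of same-numbered samples correlated at a mean of 0.34 (-0.01 to 0.53, 28 pairs of groups) in HEK293T and -0.02 (-0.35 to 0.45, 6 pairs) in Flp-In cells, so they were not taken as pairs, although in HEK293T cells the share of reads outside genes separated the numbers. With the number as a block, no tested member was called; the count over all genes went from 2 to 3 in the pooled contrast, from 1 to 13 in RPRD1A_RPRD2_KD and from 2 to 9 in RPRD1A_RPRD1A_KD against the control, and from 122 to 1 in FLP_TET against FLP. Within number 1 and number 2, an alternative chosen after seeing the data, VHL differed by 0.13 and 0.37 in mean log2(CPM + 1) and HIF1A by 0.05 and -0.17. In the groups left with 1 library, that library is assumed to vary like the others. Depth limits ARNT2, EPAS1, EGLN3 and AHR most.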
